A study of Mus musculus with 36 samples.

Results

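The genes described here are 7 subunits of NMDA and delta glutamate receptors, *Grin1*, *Grin2a*, *Grin2b*, *Grin2c*, *Grin2d*, *Grin3a* and *Grid1*. They were chosen by name from the Grin and Grid families and make up 7 of the 24421 genes listed for each tissue, and all 7 passed the filter on low counts in every comparison. RNA with poly(A) tails was sequenced from the cerebellum and the hippocampus of 18 adult C57Bl/6 mice, which gave 36 libraries. Controls were *Pogz* fl/fl mice without Cre, cKO+/- mice were NesCre/+; *Pogz* fl/+ and cKO-/- mice were NesCre/+; *Pogz* fl/fl, with 3 males and 3 females of each genotype. The *Nestin* promoter drives Cre in the central and peripheral nervous system, and controls carried no Cre, so in contrasts with controls effects of Cre and of the deletion cannot be told apart. Counts on genes ranged from 21421850 to 32544929 per library in the cerebellum and from 17609321 to 45544188 in the hippocampus.

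NMDA receptors are glutamate-gated cation channels built from GluN1, the obligatory subunit encoded by *Grin1*, together with GluN2 subunits that bind glutamate or GluN3 subunits that bind glycine. The GluN2 subunit sets the kinetics, the magnesium block and the calcium flow of the channel: GluN2A and GluN2B prevail in the forebrain, GluN2C in mature cerebellar granule cells and GluN2D in early development and in interneurons. Delta receptors are relatives that work mainly as synaptic organizers, joined across the cleft to neurexins through cerebellins, and GluD1, encoded by *Grid1*, occurs widely in the forebrain.

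The level of *Pogz* was examined first, because it checks the genotype labels. Levels of 1 gene across libraries are in CPM, the counts of a gene relative to all counts of its library, scaled with TMM factors over all 36 libraries. In the cerebellum *Pogz* had a lowest, median and highest level of 87.1, 90.5 and 122 CPM in the 6 controls, 64.6, 77.8 and 79.0 CPM in the 6 cKO+/- and 56.4, 64.0 and 72.3 CPM in the 6 cKO-/- libraries. Both mutant groups lay wholly below the controls, and they overlapped with each other. In the hippocampus *Pogz* had 91.6, 93.2 and 94.8 CPM in controls and 75.7, 77.6 and 81.7 CPM in cKO+/- libraries, and the cKO-/- libraries had 60.1, 61.6, 62.7, 63.2 and 69.6 CPM. Here the 3 genotypes did not overlap. Differences between genotypes were estimated on the log2 scale per *Pogz* allele lost, with edgeR's quasi-likelihood test and Benjamini-Hochberg adjustment over all genes tested, called at an FDR of 0.05. *Pogz* fell by 0.30 (standard error 0.0457, adjusted p = 0.000356) in the cerebellum and by 0.28 (standard error 0.0205, adjusted p = 1.79e-07) in the hippocampus, on counts that do not separate the deleted exons from the rest of the gene. For cKO+/- against control alone, cerebellar *Pogz* did not pass (-0.36, adjusted p = 0.153).

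Marker genes matched the tissue labels. Of 7 markers of cerebellar granule cells, 7 were above 1 CPM in each cerebellar control, with a summed level of 5025 to 5999 CPM, most of all from *Cbln3*. Of 7 markers of hippocampal pyramidal and dentate granule cells, 7 were above 1 CPM in each hippocampal control, with a summed level of 770 to 1036 CPM, against 64.0 to 99.6 CPM in cerebellar controls. Several libraries nevertheless stood apart. The hippocampal control library of Sample_1129 held 50.5 CPM of *Gabra6* and 19.6 CPM of *Pcp2*, markers of cerebellar granule and Purkinje cells that stayed at or below 1.11 and 0.919 CPM in the other hippocampal libraries. *Slc17a6*, a vesicular glutamate transporter used in the brainstem list, was at 57.4, 64.4, 120 and 101 CPM in the cerebellar libraries of Sample_933, Sample_936, Sample_1385 and Sample_1433, which are cKO+/- or cKO-/-, and at or below 9.24 CPM in the cerebellar controls. *Ttr*, the main choroid plexus transcript, was at 2118, 2707 and 2803 CPM in the cerebellum of Sample_933, Sample_936 and Sample_1433, and at or below 43.6 CPM in the other cerebellar libraries. In the hippocampus *Ttr* was high in some libraries of every genotype: at 2233 and 4655 CPM in the controls Sample_1170 and Sample_1129, at 607 CPM in the cKO+/- Sample_1189, and at 1047 and 4653 CPM in the cKO-/- Sample_1219 and Sample_1385.

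The hippocampal cKO-/- library of Sample_1160 differed most from the rest. It held 831 CPM of *Grin1*, above the 609 CPM of the highest control, but 1.73 CPM of *Grin2a*, far below every other hippocampal library. Its balance of long over shorter transcripts, described with *Grin2a* below, was -1.25, against -0.07 to 0.19 in the other hippocampal libraries. The study left out 1 RNA sample as an outlier, and results known from earlier work on these data point to this library, so hippocampal estimates come from 17 libraries without it. These *Grin1* and *Grin2a* values were not the reason, but leaving the library out does move the estimates of both, and those over all 18 libraries are given as well. The animals of the series also differ in their numbers: Sample_933, Sample_938 and Sample_1433 (cKO+/-) and Sample_936, Sample_1371, Sample_1379 and Sample_1385 (cKO-/-) have numbers below or above those of the other 11 animals, and what the numbers stand for is not given in the sources used here.

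In control mice, each of the 7 subunits differed between the tissues. The call was made for 7 of 7 members by edgeR and for 7 by DESeq2, against 71.9% of the 14224 genes tested, so that being called was the usual case in this comparison. More telling are the sizes and the directions: *Grin2c* was the only member higher in the cerebellum, and *Grin2b* had the largest difference towards the hippocampus. Control libraries of the tissues did not overlap for 5 of 7 members, against 52.1% of all genes tested, and they overlapped for *Grin2d* and *Grin3a*.

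*Grin1* encodes the subunit without which no NMDA receptor forms. It lies on the minus strand at chr2:25291177-25319187 of GRCm38 and had 262, 286 and 338 CPM (lowest, median, highest) in the 6 cerebellar controls and 448, 540 and 609 CPM in the 6 hippocampal controls. The hippocampus was higher in every control mouse, by 0.90 on the log2 scale (standard error 0.0889, adjusted p = 6.94e-07), a 1.86-fold difference. On the opposite strand, exons of *Grin1os* share 1307 bases with those of *Grin1*, which is 29.9% of the *Grin1* exon length. Whether the counting used strand is not stated, so reads from the pair cannot be told apart there; *Grin1os* was counted at 10.1 to 24.7 CPM in cerebellar and 15.3 to 21.2 CPM in hippocampal controls.

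*Grin2c*, the subunit of mature granule cells, showed the opposite pattern. It lies on the minus strand at chr11:115249169-115267243 and had 379, 461 and 571 CPM in cerebellar controls, against 68.6, 78.3 and 117 CPM in hippocampal controls. Every cerebellar library was above every hippocampal one, and the highest hippocampal value was that of Sample_1129, the library with cerebellar markers. The difference, hippocampus minus cerebellum, was -2.50 on the log2 scale (standard error 0.150, adjusted p = 3.91e-09), or 5.64-fold in favour of the cerebellum, and -2.62 without the hippocampal library of Sample_1129.

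The sequences upstream of *Grin1* and *Grin2c* are shown because these genes had the highest levels per length among the NMDA receptor subunits, *Grin1* in hippocampal and *Grin2c* in cerebellar controls. They come from the RefSeq promoter table of GRCm38.p6, which held 3 of the 7 members, and stop before the annotated transcript start; the CG dinucleotide, which reads the same on both strands, is in capitals. The 250 bases of *Grin1* (minus strand, chr2:25319188-25319437) hold 27 CG dinucleotides and 58.8% G and C, and 8.56% of 32851 promoters had as many CG in a window of that length, with a median of 6. The 196 bases of *Grin2c* (minus strand, chr11:115267298-115267493) hold 7 CG dinucleotides and 64.8% G and C, and 37.5% of promoters had as many, with a median of 4.
Grin1: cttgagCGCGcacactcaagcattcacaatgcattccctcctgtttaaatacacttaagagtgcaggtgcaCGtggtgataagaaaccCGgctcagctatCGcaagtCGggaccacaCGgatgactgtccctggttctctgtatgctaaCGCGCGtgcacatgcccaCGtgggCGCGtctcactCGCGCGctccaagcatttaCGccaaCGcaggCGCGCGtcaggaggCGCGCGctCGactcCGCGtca
Grin2c: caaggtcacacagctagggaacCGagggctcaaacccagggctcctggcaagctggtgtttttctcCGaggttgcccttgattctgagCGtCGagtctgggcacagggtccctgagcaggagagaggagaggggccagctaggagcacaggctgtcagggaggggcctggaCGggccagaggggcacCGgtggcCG
Both are given 5′ to 3′ on the strand of the gene. The Grin1 window is thus richer in CG than most promoters, whereas that of Grin2c is not set apart from them. No binding or methylation was measured here.

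The forebrain subunits *Grin2b* and *Grin2a* both had higher levels in the hippocampus. *Grin2b*, on the minus strand at chr6:135729805-136173511, had 1.39, 4.44 and 5.50 CPM in cerebellar controls and 28.1, 66.6 and 134 CPM in hippocampal controls, without overlap. The difference was 4.08 on the log2 scale (standard error 0.362, adjusted p = 2.23e-07), or 16.9-fold, the widest among the members. *Grin2a*, on the minus strand at chr16:9577710-9992533, had 2.72, 9.68 and 13.7 CPM in cerebellar and 22.7, 35.5 and 65.9 CPM in hippocampal controls, again without overlap, and differed by 2.14 (standard error 0.392, adjusted p = 0.000243), or 4.41-fold. Both genes varied widely within a tissue: the control SD came to 54.4% of the mean for cerebellar *Grin2a* and to 52.6% for hippocampal *Grin2b*, against 9.08% and 10.5% for *Grin1*. The exons counted for *Grin2a* and *Grin2b* stop 9809 and 16584 bases short of the 3′ ends that RefSeq gives them, and those of *Grid1* and *Grin2d* 2272 and 600 bases short, so the levels of these 4 genes refer to the counted exons only.

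*Grin2d*, the subunit linked to early development and interneurons, and *Grin3a*, a glycine-binding subunit that lowers calcium flow and magnesium block, differed less. *Grin2d*, on the minus strand at chr7:45832483-45866681, had 10.4, 11.03 and 19.97 CPM in cerebellar and 18.8, 20.1 and 23.1 CPM in hippocampal controls. The tissues met only at the cerebellar library of Sample_1170, and the difference was 0.70 (standard error 0.123, adjusted p = 0.000173). *Grin3a*, on the minus strand at chr4:49661611-49845769, had 29.6, 35.5 and 44.8 CPM in cerebellar and 34.8, 46.1 and 51.4 CPM in hippocampal controls. The groups overlapped over much of their range, and the difference of 0.31 (standard error 0.113, adjusted p = 0.0236) lost its call without Sample_1172 (0.25, adjusted p = 0.0964), Sample_1190 (0.26, adjusted p = 0.0800) or Sample_1192 (0.29, adjusted p = 0.0636).

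*Grid1*, which encodes the synaptic organizer GluD1 and lies on the plus strand at chr14:34820136-35581115, had 16.1, 24.5 and 30.1 CPM in cerebellar and 59.8, 69.2 and 73.0 CPM in hippocampal controls. All hippocampal libraries were above all cerebellar ones, with a difference of 1.48 (standard error 0.127, adjusted p = 1.53e-07), or 2.80-fold. *Grin3b*, the remaining GluN3 gene, was low in both tissues and differed by -1.12 (adjusted p = 1.4e-05).

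To compare genes with each other, levels were divided by exon length, giving CPM per kb. In cerebellar controls the medians per kb ran from 94.2 for *Grin2c* and 65.4 for *Grin1* through 7.14 for *Grid1*, 4.60 for *Grin3a*, 2.52 for *Grin2d* and 2.15 for *Grin2a* to 0.591 for *Grin2b*. In hippocampal controls they ran from 123.5 for *Grin1* through 20.2 for *Grid1*, 16.0 for *Grin2c*, 8.87 for *Grin2b*, 7.87 for *Grin2a* and 5.98 for *Grin3a* to 4.59 for *Grin2d*. *Grin1* stood clear of all other members in the hippocampus. In the cerebellum *Grin2c* and *Grin1* stood clear of the rest, and their level per kb had a ratio of 1.17 to 1.90 within the control libraries. From *Grid1* downwards, the ranges of levels per kb of neighbours in each order overlapped. Both orders refer to counted exon length. *Grin3a* has a coding length of 3408 bases, against 7711 bases of counted exons. With coding length its median moved above that of *Grid1* in the cerebellum and above that of *Grin2a* in the hippocampus.

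**Figure D1:**
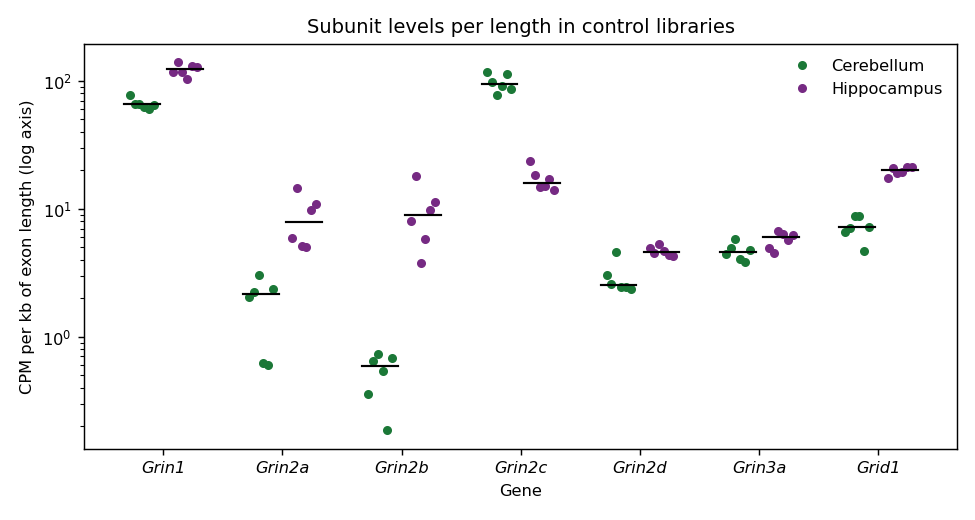
Level of each subunit in CPM per kb of exon length on a log axis, in the 6 cerebellar (green) and 6 hippocampal (purple) control libraries; points are libraries and lines are medians. *Grin2c* drops from a median of 94.2 in the cerebellum to 16.0 in the hippocampus, whereas *Grin2b* goes from 0.591 to 8.87.

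Shares of the summed level per kb of the 6 NMDA receptor members show the composition of the RNA. *Grin2c* held a median of 56.4% of this sum in cerebellar controls and *Grin1* 38.3%. In hippocampal controls *Grin1* held 73.5%, *Grin2c* 9.63%, *Grin2b* 5.16% and *Grin2a* 4.57%. Among the GluN2 genes alone, *Grin2c* held 95.1% in the cerebellum, while in the hippocampus the shares were 45.4% for *Grin2c*, 21.3% for *Grin2b*, 20.9% for *Grin2a* and 11.1% for *Grin2d*. The summed GluN2 level per kb was 1.55 times that of *Grin1* in cerebellar controls and 0.313 times in hippocampal controls, as medians. These are shares of RNA per counted exon length, not of receptor protein.

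**Figure D2:**
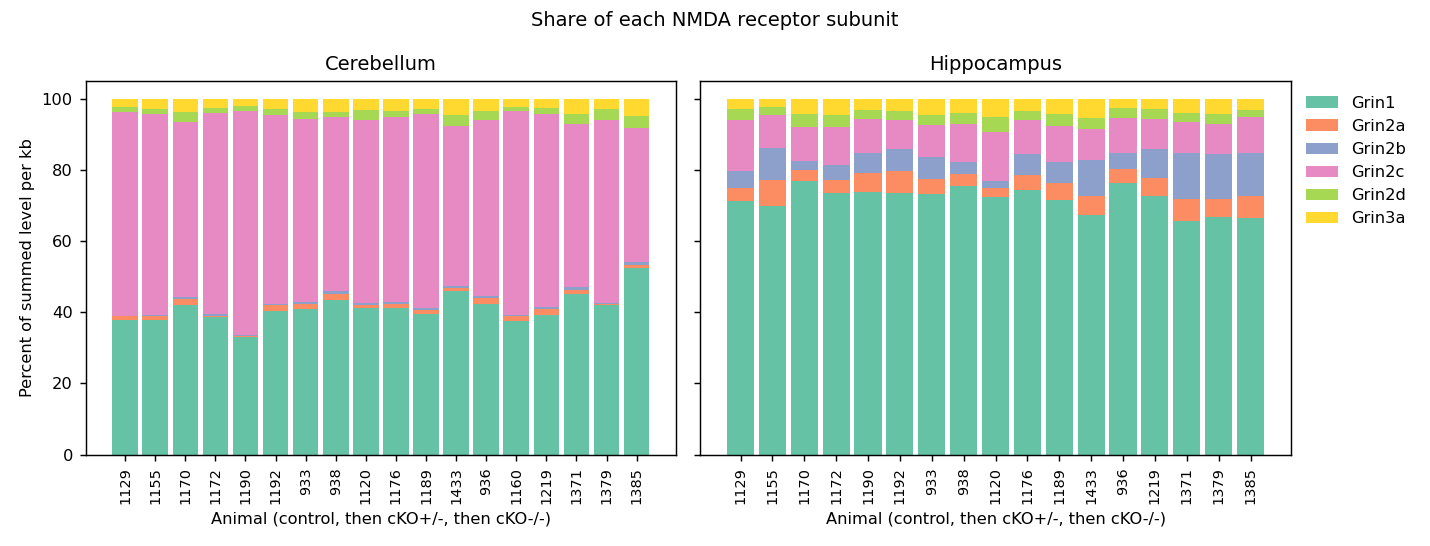
Share of each NMDA receptor subunit gene in the summed level per kb, as a stacked bar for each animal in the cerebellum (left) and the hippocampus (right, without Sample_1160), ordered as control, cKO+/- and cKO-/-. *Grin2c* is the widest part in cerebellar controls, with a median of 56.4%, and *Grin1* in hippocampal controls, with 73.5%.

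Genes that work with these receptors were compared between the tissues as well. Of 59 such genes in 6 lists, 30 were higher in the hippocampus, 21 were lower and 8 did not pass, with a median log2 difference of 0.35 against -0.02 over all genes tested. Of all 14224 genes tested, 5004 were higher, 5223 were lower and 71.9% passed, so a call alone does not set these genes apart, nor was any list tested as a set. Of 7 partners of delta receptors, 2 were higher and 4 lower, and the cerebellins divided: *Cbln2* (7.62) and *Cbln4* (5.16) were higher in the hippocampus and *Cbln1* (-6.89) in the cerebellum. Of 15 scaffold genes of the postsynaptic density, 10 were higher in the hippocampus and 2 lower, with *Dlgap2* (6.54) and *Dlgap3* (1.56) on the first side and *Homer3* (-2.32) on the second. Of 14 genes of calcium and kinase signalling, 10 were higher and 3 lower, among them the kinase subunits *Camk2a* (5.52) and *Camk2d* (-2.70). Of 10 genes of co-agonist and glutamate handling, 5 were higher and 4 lower, among them the neuronal glutamate transporter *Slc1a1* (2.54), the Purkinje cell transporter *Slc1a6* (-4.32) and the D-serine-degrading oxidase *Dao* (-6.77). Of 11 genes of trafficking and adhesion, 3 were higher and 6 lower, with *Neto1* (6.04) and *Lin7a* (-2.99) as examples. Numbers in brackets are log2 differences, hippocampus minus cerebellum, and each of these passed the FDR. With libraries of all genotypes in place of controls alone, the differences of *Cbln2* and *Cbln4* were smaller, 2.60 and 3.09, and still passed.

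Loss of *Pogz* alleles was then examined in the cerebellum. None of the 7 subunits passed the FDR in edgeR (0 of 7), against 13.7% of the 14027 genes tested, and with so few members a count of 0 is not far below that share. At an unadjusted p under 0.05 in edgeR there were 3, *Grin2b*, *Grin2c* and *Grid1*. The share of all genes under that p was not counted, so it does not set these 3 apart. DESeq2 called 1 member, *Grin2b*, and 2569 of all 14027 genes tested. No member had cKO-/- libraries that lay all on 1 side of the controls (0 of 7), against 4.49% of genes. The median estimate was 0.02 over the members and 0.00 over all genes tested.

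*Grin2b* had the largest cerebellar estimate. It had 1.39, 4.44 and 5.50 CPM in controls, 5.48, 6.08 and 7.93 CPM in cKO+/- and 3.26, 7.14 and 8.64 CPM in cKO-/- libraries. 5 of 6 cKO-/- libraries were above the highest control, and Sample_1379 lay within the control range. The estimate per allele lost was 0.38 (standard error 0.138, unadjusted p = 0.0128, adjusted p = 0.0719), with an adjusted p of 0.0327 in DESeq2 and of 0.0254 without Sample_1379 (0.46). It was 0.33 (adjusted p = 0.247) without the 4 libraries high in *Slc17a6*, an alternative chosen after seeing the data. With a covariate that marks the 7 animals with lower or higher numbers, the allele estimate was 0.31 (adjusted p = 0.366). At 1.39 to 8.64 CPM, *Grin2b* had the lowest median of the members in each cerebellar group.

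*Grin2c* had 379, 461 and 571 CPM in controls, 324, 381 and 485 CPM in cKO+/- and 223, 361 and 518 CPM in cKO-/- libraries. The groups overlapped; Sample_1385 was lowest and Sample_1160 highest among cKO-/- mice. The estimate was -0.20 per allele (standard error 0.0803, adjusted p = 0.105), and without Sample_1160 it was -0.27 (adjusted p = 0.0191), a call. Without the libraries high in *Slc17a6* it was -0.13 (adjusted p = 0.337). With a covariate that marks the 7 animals with lower or higher numbers, the allele estimate was -0.06 (adjusted p = 0.775), while the covariate itself had -0.46 for *Grin2c* (adjusted p = 0.0305). That covariate was called for 1 of 7 members, against 9.20% of genes tested. All 7 marked libraries, at 223 to 372 CPM of *Grin2c*, lay below all 11 others, at 379 to 571 CPM, and the cKO-/- libraries among the 11, Sample_1160 and Sample_1219 (518 and 430 CPM), lay within the control range. Genotype and number range cannot be told apart for the marked mice, none of which is a control.

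Granule cell markers are given beside *Grin2c*, since that is where it is mainly expressed in the cerebellum. The 7 markers summed to 5025, 5683 and 5999 CPM in controls, 3403, 5489 and 6512 CPM in cKO+/- and 3109, 4488 and 6339 CPM in cKO-/- libraries, most of all from *Cbln3*. Among cKO-/- libraries the lowest sums, 3109, 3714 and 4036 CPM, were those of Sample_1385, Sample_1371 and Sample_1379, and Sample_1160 was highest. Among cKO+/- libraries Sample_1433 was lowest, and the ranges of both mutant groups reached below and above that of the controls. Of the 7, *Barhl1* passed the test (-0.29, adjusted p = 0.00315) and the median estimate was -0.13. None of the 7 was at 0. The part of cell composition in the *Grin2c* values was not tested, and in bulk tissue fewer cells of a type and less RNA per cell cannot be told apart.

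*Grid1* had 16.1, 24.5 and 30.1 CPM in controls, 27.0, 29.0 and 30.2 CPM in cKO+/- and 24.6, 30.5 and 43.9 CPM in cKO-/- libraries of the cerebellum. Sample_1385 and Sample_1371 were highest, and the ranges overlapped. The estimate of 0.18 (standard error 0.0650, adjusted p = 0.0757) passed without Sample_1160 (0.21, adjusted p = 0.0291) or without Sample_1219 (0.20, adjusted p = 0.0427), and was 0.09 (adjusted p = 0.579) with the covariate for number range. It ran from 0.13 to 0.21 when leaving out 1 library at a time, and was 0.11 (adjusted p = 0.363) without the libraries high in *Slc17a6*. The remaining members had estimates of -0.04 for *Grin1*, 0.01 for *Grin2a*, 0.12 for *Grin2d* and 0.02 for *Grin3a*, with adjusted p from 0.467 to 0.971. *Grin1* was the steadiest, at 262 to 338 CPM in controls and 267 to 302 CPM in cKO-/- libraries. The antisense *Grin1os* did pass, falling by 0.38 (adjusted p = 0.0323), from a median of 11.5 CPM in controls to 8.45 CPM in cKO-/- libraries. The control Sample_1129 had 24.7 CPM, and the call was lost without it (-0.23, adjusted p = 0.0886), as without Sample_1190 (-0.38, adjusted p = 0.0662), Sample_1371 (-0.39, adjusted p = 0.0522) or Sample_1385 (-0.32, adjusted p = 0.0825). It was also lost with the covariate for number range (-0.37, adjusted p = 0.216) and without the libraries high in *Slc17a6* (-0.33, adjusted p = 0.0952).

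**Figure D3:**
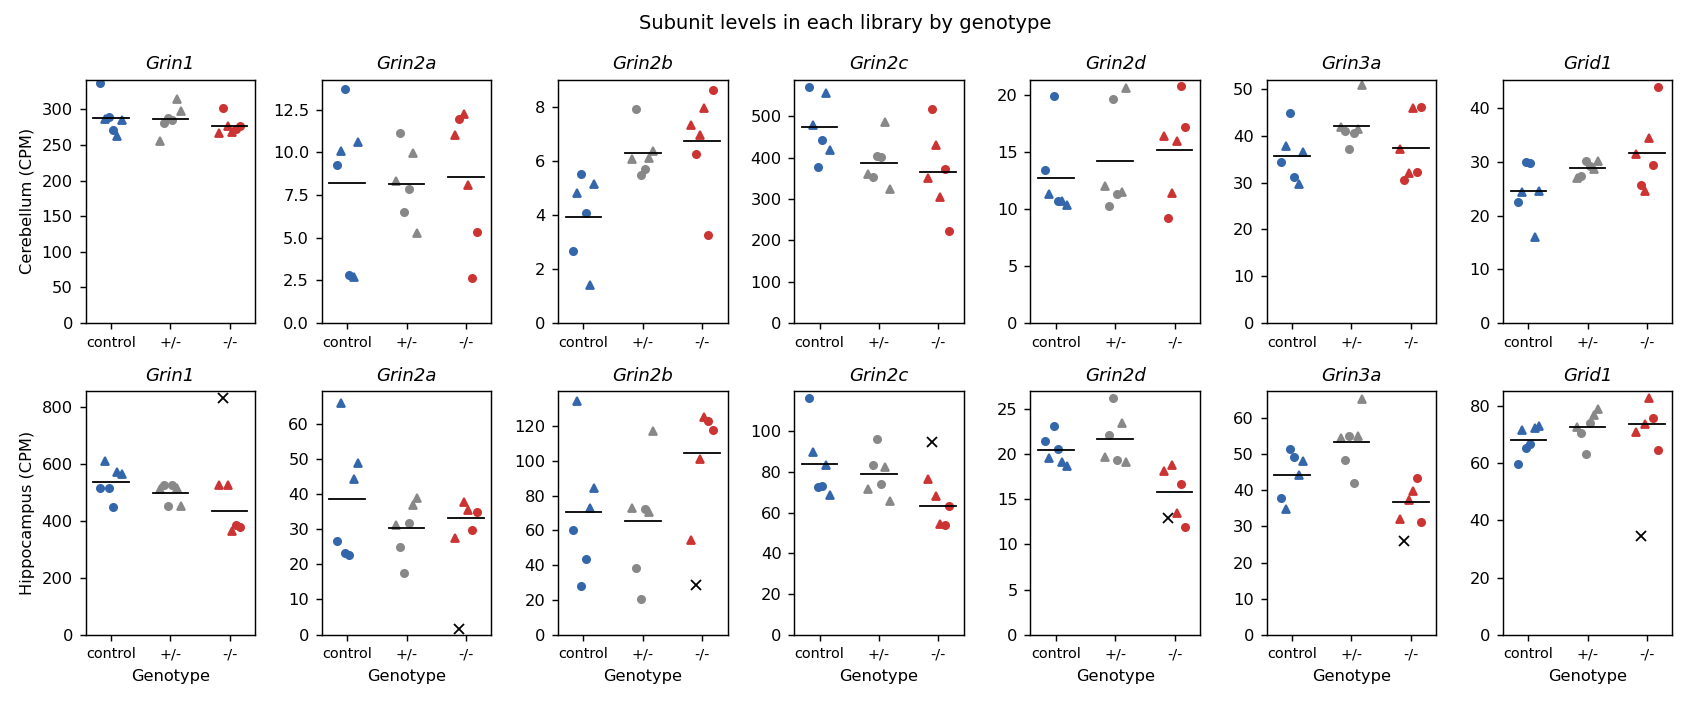
CPM of each subunit in every library of the cerebellum (top) and the hippocampus (bottom) by genotype; circles are females, triangles males, lines group means, and x the hippocampal library of Sample_1160, which was left out of the fits. Cerebellar *Grin2b* reaches 5.50 in controls and 8.64 in cKO-/- mice, and hippocampal *Grin1* falls into 3 lower and 2 higher cKO-/- libraries.

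In the hippocampus, again 0 of 7 members passed in edgeR, against 4.44% of the 14339 genes tested. At an unadjusted p under 0.05 in edgeR there were 3, *Grin1*, *Grin2c* and *Grin2d*, and again the share of all genes was not counted. DESeq2 called 1 member, *Grin1*, and 1056 of all 14339 genes tested. No member had cKO-/- libraries all on 1 side of the controls (0 of 7), against 3.61% of genes. The median estimate was -0.12 over the members and 0.00 over all genes tested.

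*Grin1* came closest to a call. It had 448, 540 and 609 CPM in the 6 controls and 450, 514 and 527 CPM in the 6 cKO+/- libraries, and in the 5 cKO-/- libraries it had 364.8 (Sample_1371), 377.0 (Sample_1385), 383.5 (Sample_1379), 526.3 (Sample_1219) and 526.4 CPM (Sample_936). The cKO-/- mice thus divided into 3 below every control and 2 within the control range. The estimate was -0.16 per allele (standard error 0.0472, unadjusted p = 0.00323, adjusted p = 0.0621), with an adjusted p of 0.0183 in DESeq2. It passed without Sample_936 (-0.19, adjusted p = 0.0297), Sample_1219 (-0.18, adjusted p = 0.0414) or Sample_1172 (-0.18, adjusted p = 0.0433). It was -0.06 (adjusted p = 0.708) over all 18 libraries and -0.11 (adjusted p = 0.819) with the covariate for number range. The 3 low mice have numbers above those of all others but Sample_1433, which had 453 CPM, and these 4 hippocampal libraries were also the shallowest, with 17609321 to 26090969 counts, against 30389941 or more in the rest. Sample_936 has a lower number. In the fit with the covariate, the number-range term itself was -0.12 for *Grin1* (edgeR unadjusted p = 0.245) and did not pass. That term marks lower and higher numbers alike. The part of depth, or of higher numbers alone, was not tested.

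Among the GluN2 genes, hippocampal *Grin2c* had 68.6, 78.3 and 117 CPM in controls, 65.7, 78.3 and 96.3 CPM in cKO+/- and 54.1, 54.4, 63.4, 68.3 and 76.6 CPM in cKO-/- mice. Of the 5 cKO-/- values, 4 were below every control. The estimate was -0.19 (standard error 0.0692, adjusted p = 0.124), and -0.14 without the control Sample_1129, which holds cerebellar markers and the highest *Grin2c* value. *Grin2d* had 18.8, 20.1 and 23.1 CPM in controls, 19.1, 20.9 and 26.3 CPM in cKO+/- and 11.9, 13.5, 16.7, 18.2 and 18.8 CPM in cKO-/- mice. Here 4 of 5 lay below every control too, and the estimate was -0.17 (standard error 0.0700, adjusted p = 0.188), with 0.08 for cKO+/- against control alone and -0.19 to -0.10 when leaving out 1 library at a time.

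*Grin2b* ranged widely in the hippocampus, with 28.1, 66.6 and 134 CPM in controls, 20.5, 71.5 and 117 CPM in cKO+/- and 54.6, 101, 118, 123 and 125 CPM in cKO-/- libraries. 4 of the 5 cKO-/- values were above 5 of the 6 controls, and none was above the highest control, a male. The estimate was 0.31 (standard error 0.170, adjusted p = 0.317), and 0.22 (adjusted p = 0.959) with the covariate for number range. *Grin2a* had 22.7, 35.5 and 65.9 CPM in controls and 27.6, 29.8, 34.9, 35.3 and 37.8 CPM in cKO-/- libraries, wholly inside the control range, with an estimate of -0.10 (adjusted p = 0.562). The ratio of *Grin2b* to *Grin2a* per kb had a median of 1.09 (0.729 to 1.36) in controls and 1.26 (0.702 to 1.80) in cKO+/- libraries, and was 1.19, 1.61, 2.03, 2.13 and 2.48 in cKO-/- libraries. Of the cKO-/- values 4 were above every control, the 3 highest from animals with higher numbers than all controls. The highest cKO+/- ratio, 1.80, was that of Sample_1433, which also has a higher number. These 4 libraries with higher numbers were the shallowest of the hippocampus, and the part of number or depth in the ratio was not tested. The cKO+/- range reached below and above the controls. This ratio is a description and was not tested. *Grin3a* and *Grid1* had estimates of -0.12 (adjusted p = 0.443) and 0.05 (adjusted p = 0.323), and *Grid1* stayed within 59.8 to 82.8 CPM in the 17 libraries. For *Grin3a* the mutant groups lay on opposite sides of the controls. Against control it had 0.26 in cKO+/- (adjusted p = 0.421) and -0.28 in cKO-/- mice (adjusted p = 0.184), with medians of 46.1 CPM in controls, 54.7 CPM in cKO+/- and 37.2 CPM in cKO-/- libraries. Over all 18 libraries the estimates were -0.21 for *Grin2a*, 0.25 for *Grin2b*, -0.15 for *Grin2c*, -0.21 for *Grin2d*, -0.18 for *Grin3a* and -0.02 for *Grid1*, with adjusted p from 0.196 to 0.894. Leaving out 1 of the 17 libraries at a time moved *Grin2a* from -0.18 to -0.02 and *Grin3a* from -0.17 to -0.07, without a call.

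**Figure D4:**
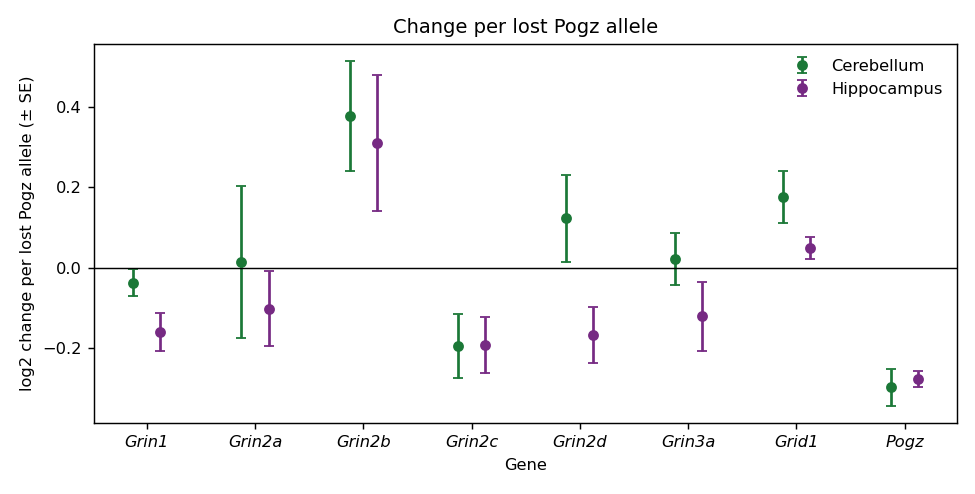
Estimated log2 change per *Pogz* allele lost, with its standard error as bars, in the cerebellum (green) and the hippocampus (purple, 17 libraries). *Pogz* itself sits at -0.30 and -0.28 and passed the FDR in both tissues, whereas the 7 subunits, from -0.20 to 0.38, did not.

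Whether the allele estimates differed between the tissues was tested as an interaction over 35 libraries. In edgeR 0 of 7 members passed, against 1.49% of the 13587 genes tested. At an unadjusted p under 0.05 in edgeR there were 2, *Grin1* and *Grin2d*, without a count over all genes. DESeq2 called 0 members and 341 of all 13587 genes. The estimate, hippocampus minus cerebellum, was -0.13 (standard error 0.0559, adjusted p = 0.287) for *Grin1* and -0.30 (standard error 0.137, adjusted p = 0.322) for *Grin2d*. The other members were between -0.15 and -0.01. No difference in the response of any subunit between cerebellum and hippocampus was thus established.

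Genes that work with the receptors were also examined for *Pogz* dosage. In the cerebellum 7 of the 57 tested rose, 3 fell and 47 did not pass, against 13.7% called over all genes, with a median of 0.01 against 0.00. In co-agonist and glutamate handling 5 of 10 rose, with a list median of 0.16, and no list was tested as a set. Among these 5 were the glycine transporter *Slc6a9* (0.18, adjusted p = 0.0149), which clears the co-agonist of NMDA receptors, and the glutamate transporters *Slc1a6* (0.22, adjusted p = 0.0162) and *Slc1a1* (0.18, adjusted p = 0.0333). Markers of astrocytes, which express glutamate transporters, also moved: 2 of 3 rose, *Gfap* (0.52, adjusted p = 0.00469) and *Aqp4* (0.33, adjusted p = 0.000736). The remaining marker, *Aldh1l1*, did not (0.01, adjusted p = 0.905). The 3 summed to 583, 665 and 706 CPM in controls, 980, 1038 and 1195 CPM in cKO+/- and 967, 1052 and 1157 CPM in cKO-/- libraries. Both mutant groups lay wholly above the controls, and they overlapped with each other. None of the 3 was at 0, *Aqp4* was the most abundant, and their part in the transporter values was not tested. Other markers moved too: 2 of 3 for microglia rose, *P2ry12* (0.27) and *Cx3cr1* (0.25), 1 of 2 for Bergmann glia, *Hopx* (0.29), and 2 of 5 tested for inhibitory neurons, *Gad2* (0.25) and *Sst* (1.85). The other Bergmann glia marker, *Gdf10*, had an estimate below 0 that did not pass (-0.14, adjusted p = 0.0925). Of 5 Purkinje cell markers only *Slc1a6* itself rose, while *Pcp2* (0.01), *Car8* (0.06), *Calb1* (0.10) and *Itpr1* (0.22) did not pass. Outside this list, *Neto1* rose (0.48, adjusted p = 0.0266), an auxiliary protein found with NMDA and kainate receptors, as did the calcium-regulated exchange factor *Rasgrf2* (1.28, adjusted p = 0.0357), and the kinase subunit *Camk2b* (-0.14, adjusted p = 0.0283), *Rasgrf1* (-0.23, adjusted p = 0.0291) and the neurexin *Nrxn3* (-0.14, adjusted p = 0.0414) fell. None of the 15 scaffold genes passed. Most of these calls were weak: *Neto1* (0.40, adjusted p = 0.0910), *Rasgrf2* (0.84, adjusted p = 0.188), *Camk2b* (-0.12, adjusted p = 0.0765) and *Nrxn3* (-0.12, adjusted p = 0.108) lost theirs without Sample_1385, *Slc1a1* without Sample_1190 (0.16, adjusted p = 0.0768), and *Rasgrf1* without Sample_1379 (-0.20, adjusted p = 0.0597) or Sample_1129 (-0.21, adjusted p = 0.0673). All of these but *Rasgrf1* were also lost on leaving out other single libraries. With the covariate for number range only *Rasgrf1* kept its call (-0.33, adjusted p = 0.0133), and *Slc6a9* (0.10, adjusted p = 0.301) and *Slc1a6* (0.21, adjusted p = 0.157) did not.

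In the hippocampus 0 of 57 such genes rose and 2 fell, against 4.44% called over all genes, with a median of -0.02 against 0.00. Both encode Ras exchange factors that act downstream of NMDA receptors: *Rasgrf1* fell by 0.20 (adjusted p = 0.00109) and *Rasgrf2* by 0.16 (adjusted p = 0.00500). *Rasgrf1* thus fell in both tissues, and with the covariate for number range the hippocampal estimates stayed close, at -0.18 for *Rasgrf1* (adjusted p = 0.0859) and -0.15 for *Rasgrf2* (adjusted p = 0.193), without a call. Markers moved here too. *Aqp4* (0.35, adjusted p = 0.00388) and *Hopx* (0.33, adjusted p = 0.000349) rose, while *Gfap* (0.13), *Aldh1l1* (-0.05) and *Gdf10* (-0.13) did not pass. The hippocampal markers *C1ql2* (-0.45) and *Wfs1* (-0.50) fell, 2 of the 7 on their list, whose median was -0.04. The rest did not pass, with *Prox1* (-0.15), *Spink8* (-0.04) and *Tbr1* (-0.04) below 0 and *Fibcd1* (0.07) and *Neurod6* (0.08) above. The part of these markers in the values of *Rasgrf1* and *Rasgrf2* was not tested. The interaction called 0 of the 55 genes tested in both tissues.

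Spread within the groups was followed further for *Grin2a*. Its cerebellar level was 2.72 CPM in the control Sample_1190, 2.83 CPM in the control Sample_1172 and 2.63 CPM in the cKO-/- Sample_1379, against 5.26 to 13.7 CPM in the other 15 libraries. In these 3 libraries, and in Sample_1385 with 5.31 CPM, genes with long transcripts were low as a class. This was measured, after seeing the values, as the median log2 deviation of genes with over 8 kb of exons minus that of genes with 1.5 to 3 kb. The balance was -0.37 in Sample_1190, -0.35 in Sample_1379, -0.27 in Sample_1385 and -0.19 in Sample_1172, and -0.09 to 0.14 in the rest. In the hippocampal library of Sample_1160 it was -1.25. What underlies this balance was not tested. With it as a covariate, chosen after seeing the data, *Grin2b* in the cerebellum (0.40, adjusted p = 0.0320) and *Grin1* in the hippocampus (-0.17, adjusted p = 0.0372) passed. Calls over all genes rose as well, from 1916 to 2746 of 14027 in the cerebellum and from 636 to 1123 of 14339 in the hippocampus. These 2 calls therefore do not set the members apart.

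**Figure D5:**
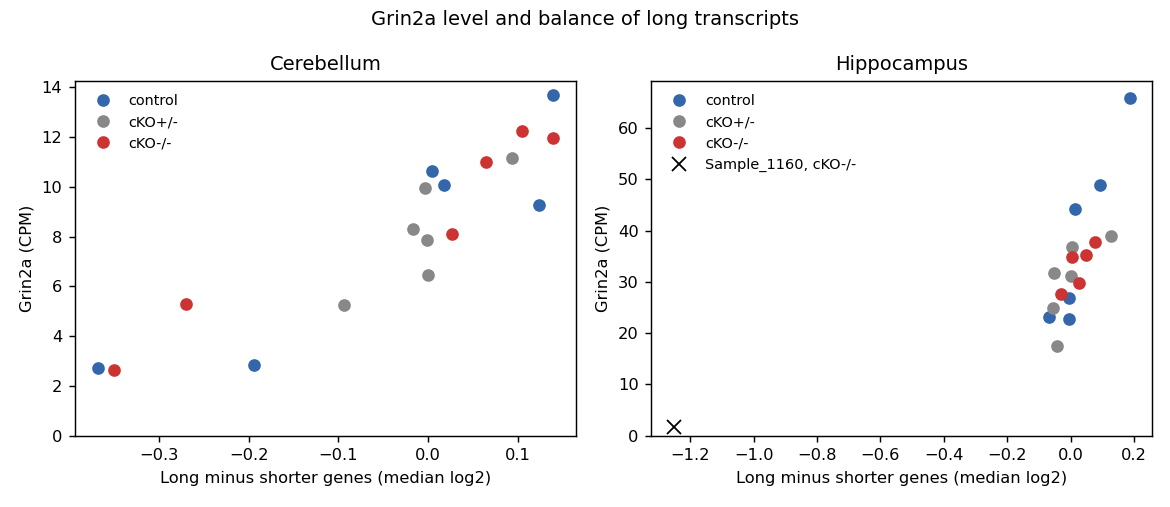
*Grin2a* level in CPM against the balance of long over shorter transcripts (median log2 deviation) in each library of the cerebellum (left) and the hippocampus (right). Cerebellar libraries at -0.37 and -0.35 hold 2.72 and 2.63 CPM, and the hippocampal library of Sample_1160, marked x, sits at -1.25 and 1.73 CPM.

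The genes whose levels moved most closely with each subunit were found from log2 deviations from the tissue and genotype means over the 35 libraries, among 13587 genes. *Grin2a* had the closest companions, *Arfgef3* (r = 0.964), *Ncor1* (0.931) and *Helz* (0.930), with exon lengths of 8216, 11144 and 6218 bases against a median of 3060 over all these genes. For the other members the closest gene was *Map1s* for *Grin1* (0.855), *Zyg11b* for *Grin2b* (0.884), *Plekhh3* for *Grin2c* (0.903), *Osbpl5* for *Grin2d* (0.870), *Adgra1* for *Grin3a* (0.813) and *Dscam* for *Grid1* (0.831). These Pearson correlations are a description, from libraries that also differ in depth and in the balance of long over shorter transcripts.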

How the data were processed

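The counts per gene were made by the authors with STAR 250a and used as deposited; methods name mm9, but 74.7% of 23204 matched genes share a start or end with GRCm38.p6. Genes over 1 CPM in 6 or more libraries were tested with edgeR 4.0.16 (R 4.3.3, TMM, sex as a covariate, Benjamini-Hochberg FDR 0.05). Alternatives used DESeq2 1.42.0 or other settings of edgeR. Genotype entered as *Pogz* alleles lost. The same animals gave both tissues: gene deviations correlated between them with a median r of 0.217 over 17 animals. Hippocampal Sample_1160 was left out of the fits. Members and lists were chosen with earlier results of these data known, and genes outside the members are named only from those lists, from overlaps or as closest companions. Alternatives changed scaling, filter, model and libraries; those on long exons, coding length, *Slc17a6* and hippocampal Sample_1129 were chosen after seeing the data. Proteins, splicing and single transcripts were left out, because the files used here hold counts per gene. With 5 or 6 libraries per group, small differences can be missed.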

Additional observations from a re-analysis of the deposited data

Results flagged for a closer look

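Of 42 groups of values examined for a library far from the others of its group, 5 held such a value; by chance this rule marks about 1 in 20 groups. All 5 are in the cerebellum. *Grin1* was at 337.5 CPM in the control Sample_1129, with 289 CPM as the next value, and at 301.8 CPM in the cKO-/- Sample_1160, with 276.9 CPM next. *Grin2b* was at 7.934 CPM in the cKO+/- Sample_938, with 6.374 CPM next. *Grin2d* was at 19.97 CPM in the control Sample_1170, with 13.4 CPM next. *Grin3a* was at 50.88 CPM in the cKO+/- Sample_1433, with 41.82 CPM next; this library also holds *Slc17a6* and *Ttr*. In the hippocampal library of Sample_1160, left out of the fits, *Grin1* was at 830.6 CPM, against 608.7 CPM in the highest control. The cause was not tested for any of them.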

How the results depend on the processing

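In the cerebellum, members called were 0 with edgeR and 1 each with DESeq2 (*Grin2b*) and with a covariate for long against shorter exon lengths, and 2 without Sample_1160. The genes called, 1916, became 2569 with DESeq2 and 2746 with the covariate for long against shorter exon lengths. They became 308 with the covariate for animal numbers, 48 for cKO+/- against control and 693 without the 4 libraries high in *Slc17a6*. Signs reversed for *Grin2d* (-0.0277) and *Grin3a* (-0.0791) with the covariate for animal numbers, for *Grin2a* for cKO+/- against control (-0.01496) and without Sample_1160 (-0.07596), and for *Grin3a* without the libraries high in *Slc17a6* (-0.0107). Leaving out 1 animal at a time gave 0 to 2 members, 935 (without Sample_1385) to 2572 genes (without Sample_1160), *Grin2a* from -0.0894 to 0.125 and *Grin3a* from -0.0138 to 0.0545.

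In the hippocampus, members called were 0 with edgeR and 1 each with DESeq2 (*Grin1*) and the covariate for long exon lengths. The genes called, 636, became 1056 with DESeq2, 68 with the covariate for animal numbers, 5 for cKO+/- against control, 1123 with the covariate for long exon lengths and 246 over all 18 libraries. For cKO+/- against control, signs reversed for *Grin2b* (-0.10), *Grin2d* (0.0825), *Grin3a* (0.264) and *Grin1os* (0.0459). *Grid1* was -0.01895 over all 18 libraries. Leaving out 1 animal gave 0 to 1 members and 286 (without Sample_1371) to 937 genes (without Sample_936).

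For tissues in controls, no member changed sign, and *Pogz*, near 0, was 0.00356 over all genotypes and -0.0662 to 0.0464 leaving out 1 animal. *Grin3a* lost its call without Sample_1172 (0.25), Sample_1190 (0.26) or Sample_1192 (0.29). A replicate block, which pairs the tissues of an animal, gave 10377 genes and the same 7 members; *Grin1os* (0.41) was called with it, as over all genotypes (0.67, adjusted p = 5.15e-06) and without Sample_1129 (0.55, adjusted p = 0.000457), and the block changed no other call among the genes named.

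For the interaction, the genes called, 203, became 341 with DESeq2, 10 with the covariate for animal numbers and 338 with the replicate block, and members stayed at 0. Signs near 0 reversed for *Pogz* (-0.0214) and *Grin3b* (-0.112) with the covariate for animal numbers, for *Grin2c* with the replicate block (0.0754), over all 36 libraries (0.0412) and without the hippocampal library of Sample_1129 (0.0427), and for *Pogz* over all 36 libraries (-0.00263). Leaving out 1 animal gave 85 (without Sample_1190) to 363 genes (without Sample_1160), *Grin2b* from -0.25 to 0.0297, *Grin2c* from -0.0442 to 0.06485, *Pogz* from -0.02655 to 0.0296 and *Grin3b* from -0.07835 to 0.0468.

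With GENCODE vM1 coding length, the share of *Grin3a* was 4.27% in cerebellar and 5.13% in hippocampal controls, and that of *Grin2d* 2.003% in hippocampal controls. RefSeq protein length was not run, because no protein sequences were at hand. The covariate for long exon lengths and the fits without the hippocampal Sample_1129 or the libraries high in *Slc17a6* were chosen after seeing the data. The cause was not tested for any of these shifts.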

Other observations

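The estimate for sex in hippocampal *Grin2a* was 0.62 on the log2 scale (male minus female, standard error 0.154) and did not pass the FDR, with an edgeR adjusted p of 0.0650. In hippocampal controls the 3 males had 44.3, 48.8 and 65.9 CPM of *Grin2a* and the 3 females 22.7, 23.2 and 26.8 CPM, without overlap. The sexes did overlap among cKO+/- mice (males 31.1, 36.8 and 38.9 CPM, females 17.55, 24.9 and 31.8 CPM) and among cKO-/- mice (males 27.6, 35.3 and 37.8 CPM, females 29.8 and 34.9 CPM). *Grin2b* had 72.8, 84.1 and 134 CPM in control males and 28.1, 43.4 and 60.4 CPM in control females, also without overlap, but the sexes overlapped in both mutant groups and the estimate of 0.63 did not pass (edgeR adjusted p = 0.293). The 3 control males also had the highest balance of long over shorter transcripts among hippocampal controls, 0.01, 0.09 and 0.19, so the 2 cannot be told apart here.

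*Spink8*, a hippocampal marker, was at 86.4 CPM in the hippocampal library of Sample_1160 and far lower in each of the other 17 hippocampal libraries.

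*Hoxa5* was at 1.9 CPM in the cerebellar library of Sample_1433 and at 3.5 CPM in that of Sample_936, which also hold *Slc17a6* and *Ttr*.

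The hippocampal markers *C1ql2* (-0.45) and *Wfs1* (-0.50) fell per allele lost in the hippocampus, 2 of the 7 on that list by edgeR, against 4.44% of all genes tested. The list median was -0.04, and *Fibcd1* (0.07) and *Neurod6* (0.08) had estimates above 0 that did not pass.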
